A study of Mus musculus with 6 samples.

Results

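The 10 genes described here encode negative feedback regulators of mitogen-activated protein (MAP) kinase signalling. They are the dual specificity phosphatase genes Dusp1, Dusp4, Dusp5, Dusp6 and Dusp14, the Sprouty genes Spry1, Spry2 and Spry4, and the Sprouty-related genes Spred1 and Spred2. They were taken by symbol from the deposited count table, where all 10 were found among 50559 listed genes. All 10 also passed the filter on low counts, as did 22360 genes in all.

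MAP kinase cascades relay signals from growth factor receptors, neurotransmitters and stress to the nucleus, and end in the kinases ERK, JNK and p38. Dual specificity phosphatases remove phosphate from both the threonine and the tyrosine that activate these kinases, and several are transcribed in response to the very signal they end. Sprouty and Spred proteins act further upstream, between the receptor and Raf, and Spred proteins bring the Ras inhibitor neurofibromin to the membrane. In the brain the inducible members are known as markers of recent neuronal activity and growth factor signalling.

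RNA was sequenced from tissue labelled auditory cortex of C57 mice, in 3 libraries labelled WNT3 overexpression and 3 labelled WNT3 control. The labels do not say how Wnt3, a secreted signalling ligand, was overexpressed, in which cells, or what the controls received, and give no age. Separate animals are not stated either, and every p-value therefore reflects the spread among these libraries alone. The extraction protocol speaks of striatum, and markers of both regions were present. The 10 cortical neuron markers summed to between 1545 and 1624 CPM (counts scaled to library size with TMM factors) in overexpression libraries and between 1452 and 1633 CPM in controls. The 10 striatal projection neuron markers summed to between 274 and 339 CPM in overexpression libraries and between 290 and 459 CPM in controls. Wnt3 was at 98.8, 7.45 and 8.71 CPM in overexpression libraries 1 to 3 and at 2.70, 1.91 and 1.74 CPM in controls 1 to 3. Total counts ranged from 42614588 to 71803617 per library.

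Control library 2 stood apart from the other 5. Its mean Spearman correlation with the other libraries over the tested genes was 0.951, against 0.975 to 0.979 for the rest, and the first principal component, which held 46.8% of the variance, set it against all others. Its deviation followed transcript length. The 5590 genes with the shortest transcripts deviated by a median log2 of 0.66 in control 2, and the 5590 with the longest by -0.49, whereas in the other libraries these medians lay between -0.15 and -0.09 and between 0.08 and 0.13. For the members and the gene lists, values without control 2 are given where leaving it out moved the log2 fold change by over 1.5 times or turned its sign.

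No member passed an adjusted p of 0.05 when groups were compared with edgeR (quasi-likelihood, Benjamini-Hochberg over all genes tested). The members' adjusted p-values lay between 0.82 and 0.99, in a comparison in which 0% of tested genes passed. Among the 10 members, the fitted log2 fold change was above 0 for 6 and below 0 for 4, with a median of 0.03 (-0.03 without control 2), beside a median of -0.01 and 49.3% above and 50.7% below 0 over all tested genes. The groups did not overlap in CPM for 3 members: Spred1, whose overexpression libraries all exceeded the controls, and Dusp1 and Dusp6, which were lower. Over all tested genes, 5.89% were higher and 6.04% lower without overlap. An unadjusted p under 0.05 was reached by 1 member, Dusp1, which was lower, against 2.8% of tested genes that were lower and 1.86% that were higher at that p.

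**Figure D1:**
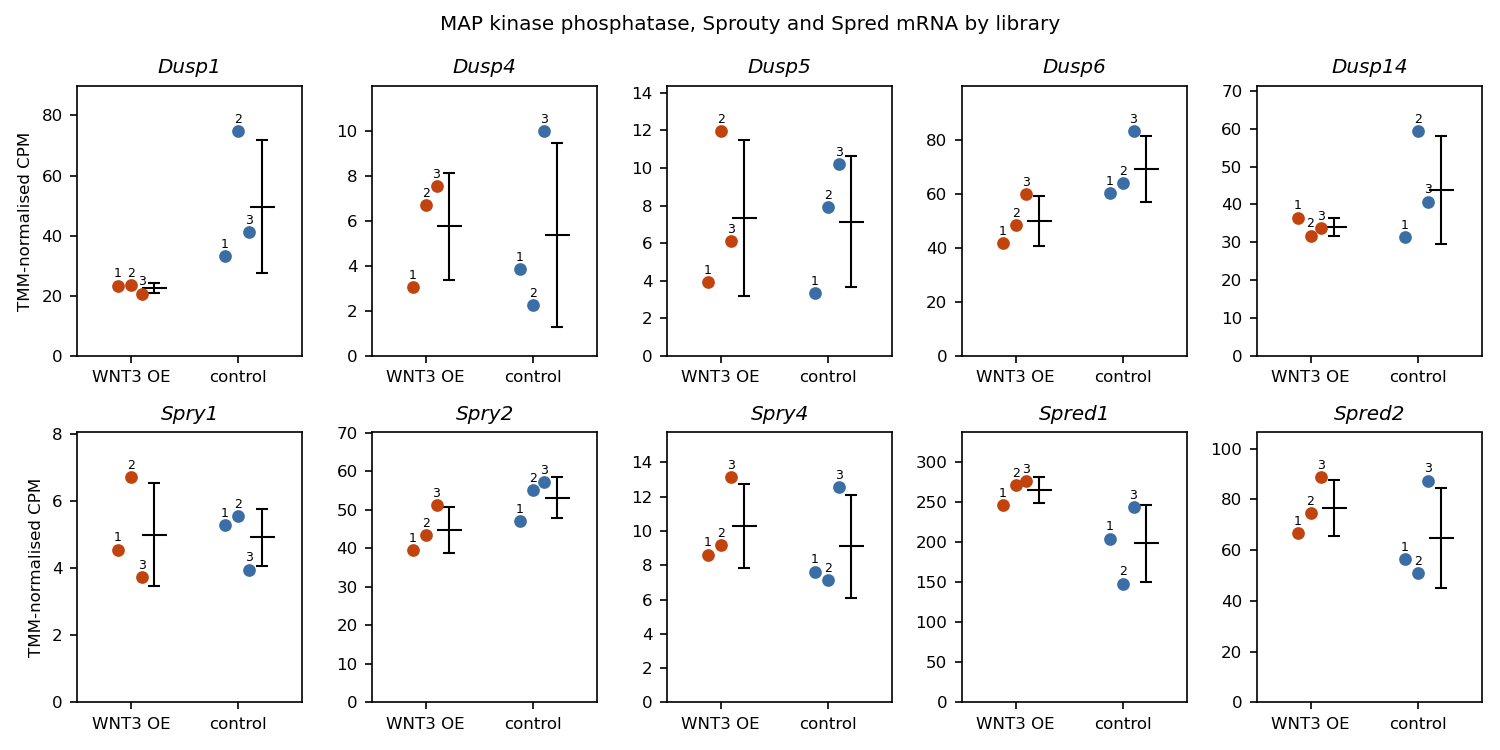
TMM-normalised CPM of each of the 10 genes (vertical axes, each from 0) in the 3 WNT3 overexpression libraries, left, and the 3 control libraries, right. Small numerals give the library number, and bars show the mean and SD of 3 libraries. Dusp1 lies between 20.8 and 23.6 CPM in overexpression and between 33.2 and 74.8 CPM in controls, and Spred1 is the only gene of the 10 whose overexpression points all lie above its controls.

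Dusp1 encodes a nuclear phosphatase of p38, JNK and ERK and is itself an immediate early gene, switched on within minutes of a stimulus. It lies on chromosome 17, positions 26505591 to 26508472 on the minus strand of mm10 (RefSeq, GRCm38.p6). Its level was 23.3, 23.6 and 20.8 CPM in overexpression libraries 1 to 3, against 33.2, 74.8 and 41.1 CPM in controls 1 to 3. The overexpression libraries lay close together, with a coefficient of variation of 6.91%, while the controls varied by 44.5% and were led by control 2. The lowest control was 1.41 times the highest overexpression library.

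The fitted log2 fold change of Dusp1 was -1.14 ± 0.30 (SE), a fold of 0.454, with a 95% interval from -1.82 to -0.46. Its Benjamini-Hochberg adjusted p from edgeR was 0.82 (0.0048 unadjusted), and 0.411% of tested genes had a smaller p. DESeq2 gave it an adjusted p of 0.094. Without control 2 the log2 fold change was -0.72 ± 0.13 (SE), with an edgeR adjusted p of 0.50, whereas DESeq2 then called the gene (adjusted p = 0.0020), among 0.64% of genes called and 0.322% called lower. DESeq2 also called it without control 1 (adjusted p = 0.012, log2 fold change -1.36), among 0.441% of genes called and 0.229% called lower. Without control 3 DESeq2 did not call Dusp1 (adjusted p = 0.079). Nor did DESeq2 call it without overexpression library 1, 2 or 3 (adjusted p = 0.46, 0.58 and 0.51). With the trend on transcript length removed from each library, the log2 fold change was -0.96 ± 0.19 (SE).

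The promoter of Dusp1 is shown with those of Dusp5 and Dusp6 so that the 2 members that were lower without overlap, Dusp1 and Dusp6, can be read beside Dusp5, an inducible member whose groups overlapped. RefSeq entries of 300 bases, from 250 before to 50 after the start site, were found for 8 of the 10 members. Both strands were searched for the core of the cyclic AMP response element (TGACG), the AP-1 site (TGANTCA), an ETS site (CCGGAAG), the TCF/LEF site of Wnt signalling (CTTTGAT) and the CArG box of serum response factor. Capitals mark matches. The windows are chr17:26508423-26508722 (minus strand) for Dusp1, chr19:53528895-53529194 (plus strand) for Dusp5 and chr10:99262981-99263280 (plus strand) for Dusp6, all in GRCm38.p6 and written in the direction of transcription.
Dusp1: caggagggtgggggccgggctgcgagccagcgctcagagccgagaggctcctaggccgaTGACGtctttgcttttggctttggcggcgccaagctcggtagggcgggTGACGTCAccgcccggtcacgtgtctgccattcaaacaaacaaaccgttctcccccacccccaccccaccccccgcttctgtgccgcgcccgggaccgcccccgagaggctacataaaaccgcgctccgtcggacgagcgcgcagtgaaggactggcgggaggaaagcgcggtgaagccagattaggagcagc
Dusp5: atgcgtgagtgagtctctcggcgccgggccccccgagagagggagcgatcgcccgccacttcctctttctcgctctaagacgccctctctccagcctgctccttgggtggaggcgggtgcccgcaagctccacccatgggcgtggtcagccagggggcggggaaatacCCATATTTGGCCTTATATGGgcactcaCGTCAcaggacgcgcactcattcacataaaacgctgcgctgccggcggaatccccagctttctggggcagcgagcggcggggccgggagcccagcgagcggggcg
Dusp6: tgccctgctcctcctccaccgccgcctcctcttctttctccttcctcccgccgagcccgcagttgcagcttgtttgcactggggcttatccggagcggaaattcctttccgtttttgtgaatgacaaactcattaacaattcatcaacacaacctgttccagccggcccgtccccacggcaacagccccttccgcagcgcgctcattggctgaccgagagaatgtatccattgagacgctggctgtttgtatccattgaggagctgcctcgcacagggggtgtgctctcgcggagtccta

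The Dusp1 window held 3 matches to TGACG, which began 191, 143 and 140 bases before the start site, and the last pair overlap as the inverted repeats of 1 palindrome. The Dusp5 window held 2 adjoining CArG boxes, 82 and 72 bases before the start, and 1 TGACG match 55 bases before it. Spred2 had 1 TGACG match, and the windows of Dusp6, Dusp14, Spry1, Spry2 and Spred1 had no match to any of the 5 motifs. The Dusp14 window, chr11:84068308-84068607 (minus strand), lies inside the gene, whose RefSeq span begins at 84069256 on that strand. Its lack of matches therefore concerns an internal start site. Of 32851 RefSeq promoters of this length, 20.8% held TGACG, 1.63% a CArG box, 7.81% the AP-1 site, 8.86% the ETS site and 3.73% the TCF/LEF site. The last 3 were in no member's window. These matches describe the letters of the windows and are no evidence of binding.

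Dusp1 was read beside other genes of its induction class. Of 19 tested immediate early genes, 15 were lower and 4 were higher, and the list's median log2 fold change was -0.73. By edgeR 0 passed, 9 had an unadjusted p under 0.05, all of them lower, and DESeq2 called 4, also lower: Jun, Npas4, Junb and Fos, the last named after its values were seen. Junb, a subunit of AP-1, was at 13.4, 15.4 and 16.3 CPM in overexpression libraries and at 29.3, 73.8 and 38.8 CPM in controls, so that control 2 was highest and control 1 lowest, as for Dusp1. Jun and the activity-dependent transcription factor Npas4 had log2 fold changes of -1.06 ± 0.17 and -1.04 ± 0.20 (SE). Set against the mean of the controls, the median of the list stood at -0.94, -0.85 and -0.21 in overexpression libraries and at -0.64, 0.27 and 0.25 in controls (log2). Overexpression library 3 thus lay above control 1 for the list, while Dusp1 was at -1.17 in overexpression library 3 and at -0.49 in control 1. Of 15 immediate early genes with a promoter entry, 13 held TGACG, beside 20.8% of all RefSeq promoters, a share not matched for base composition. An ETS site was in 1 of the 15, a CArG box in 1, and the AP-1 and TCF/LEF sites in 0. A link between this motif and the levels was not tested.

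Dusp1 is also induced by glucocorticoids, and most tested genes of that class had a fold change of the other sign. Of 12 glucocorticoid-responsive genes, the fitted fold change was positive for 9 and negative for 3 (median log2 fold change 0.26, or 0.42 without control 2). By edgeR 0 passed, and the groups overlapped for all 12. The 3 with an unadjusted p under 0.05 were higher, namely Plin4, Fkbp5 and Cdkn1a. Fkbp5, a chaperone partner of the glucocorticoid receptor, was at 29.6, 83.3 and 48.5 CPM in overexpression libraries and at 20.2, 18.9 and 30.3 CPM in controls.

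Dusp4 and Dusp5 encode the other inducible nuclear phosphatases among the members, and neither separated the groups. Dusp4 lies on chromosome 8 (34807610 to 34819894, plus strand). It was at 3.07, 6.68 and 7.55 CPM in overexpression libraries and at 3.85, 2.26 and 9.99 CPM in controls. Its libraries spanned 4.43-fold, the widest range of the 10 members in CPM, and the highest and the lowest library were both controls. The log2 fold change was 0.11 ± 0.56 (SE), with a 95% interval from -1.18 to 1.39, and it was -0.26 without control 2.

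Dusp5, whose product acts on ERK, lies on chromosome 19 (53529145 to 53541809, plus strand). It was at 3.92, 11.97 and 6.12 CPM in overexpression libraries and at 3.36, 7.90 and 10.2 CPM in controls. Library 1 was lowest in both groups, and overexpression library 2 was highest of all. The log2 fold change was 0.04 ± 0.50 (SE), with a 95% interval from -1.11 to 1.18, and it was 0.11 without control 2. Its interval overlapped that of Dusp1, and the difference between the folds of Dusp1 and Dusp5 was not tested.

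Dusp6, the cytoplasmic phosphatase of ERK and a standard readout of fibroblast growth factor signalling, lies on chromosome 10 (99263231 to 99267489, plus strand). It was at 41.7, 48.4 and 59.8 CPM in overexpression libraries, against 60.4, 64.0 and 83.2 CPM in controls. The groups did not overlap, but the lowest control was only 1.01 times the highest overexpression library. The log2 fold change was -0.47 ± 0.20 (SE), with an unadjusted p of 0.050 and an adjusted p of 0.82 by edgeR with Benjamini-Hochberg adjustment. It was -0.52 without control 2 and ranged from -0.62 to -0.31 with single libraries left out. In deposited TPM, which are per transcript length, the groups overlapped, at 38.4, 42.8 and 51.2 TPM in overexpression and 52.1, 38.1 and 71.2 TPM in controls.

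Dusp14 encodes an atypical member of the family that lacks the kinase-binding domain of the others. It lies on chromosome 11 (84048033 to 84069256, minus strand). It was at 36.6, 31.8 and 33.7 CPM in overexpression libraries and at 31.4, 59.4 and 40.8 CPM in controls. Overexpression libraries lay within the range of the controls. Its log2 fold change of -0.37 ± 0.24 (SE) was -0.08 without control 2, the library with the highest level, and -0.19 with the length trend removed.

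The Sprouty genes encode membrane-associated inhibitors of receptor tyrosine kinase signalling, and their groups overlapped in all 3 cases. Spry2, on chromosome 14 (105891947 to 105896819, minus strand), was the most abundant Sprouty gene. It was at 39.4, 43.5 and 51.2 CPM in overexpression libraries and at 47.1, 55.1 and 57.1 CPM in controls, a log2 fold change of -0.25 ± 0.17 (SE). Only overexpression library 3 reached into the control range.

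Spry1, on chromosome 3 (37639947 to 37644599, plus strand), was at 4.55, 6.70 and 3.73 CPM in overexpression libraries and at 5.28, 5.54 and 3.96 CPM in controls. The overexpression libraries held both its highest and its lowest value, and the log2 fold change was 0.02 ± 0.30 (SE), or 0.11 without control 2. Spry4, on chromosome 18 (38586247 to 38601347, minus strand), was at 8.61, 9.16 and 13.1 CPM in overexpression libraries and at 7.63, 7.13 and 12.6 CPM in controls. Library 3 was highest in each group, and the log2 fold change was 0.18 ± 0.29 (SE), or 0.03 without control 2. On log2(TPM + 1) Spry4 was at 0.62, again with control 2 its lowest library. The 95% intervals of the log2 fold change ran from -0.65 to 0.15 for Spry2, from -0.67 to 0.71 for Spry1 and from -0.50 to 0.85 for Spry4.

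Spred1 was the most abundant member. It lies on chromosome 2 (117121071 to 117182279, plus strand) and was at 246, 271 and 276 CPM in overexpression libraries, against 204, 148 and 243 CPM in controls. Its lowest overexpression library was 1.01 times its highest control, so the groups separated by a narrow margin. The log2 fold change was 0.41 ± 0.20 (SE), with a 95% interval from -0.06 to 0.88 and an adjusted p of 0.82 by edgeR with Benjamini-Hochberg adjustment. It was 0.24 ± 0.11 (SE) without control 2, the library with the lowest level, and 0.25 ± 0.11 (SE) with the length trend removed.

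Spred2, on chromosome 11 (19924442 to 20024026, plus strand), was at 66.8, 74.5 and 88.6 CPM in overexpression libraries and at 56.4, 50.9 and 87.4 CPM in controls. Control 3 lay above overexpression libraries 1 and 2. The log2 fold change of 0.24 ± 0.24 (SE) was 0.09 without control 2 and 0.04 with the length trend removed. On log2(TPM + 1) it was 1.05, with 0.18 the median of all genes on that scale. The deposited values behind this were 20.5, 28.3 and 19.7 TPM in overexpression libraries and 11.0, 4.65 and 20.7 TPM in controls, of which control 2 was lowest. By counts over TPM, Spred2, Spred1 and Spry4 had the longest estimated transcripts of the members, at 3.59, 2.17 and 2.04 times the median gene. Dusp5, Dusp14 and Dusp1 had the shortest, at 0.629, 0.648 and 0.672 times. Each estimate is a median over libraries, and that of Spred2 was not constant. Its overexpression library 2 was below library 3 in CPM (74.5 and 88.6) but above it in TPM (28.3 and 19.7). The part of this in its log2(TPM + 1) value was not tested.

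**Figure D2:**
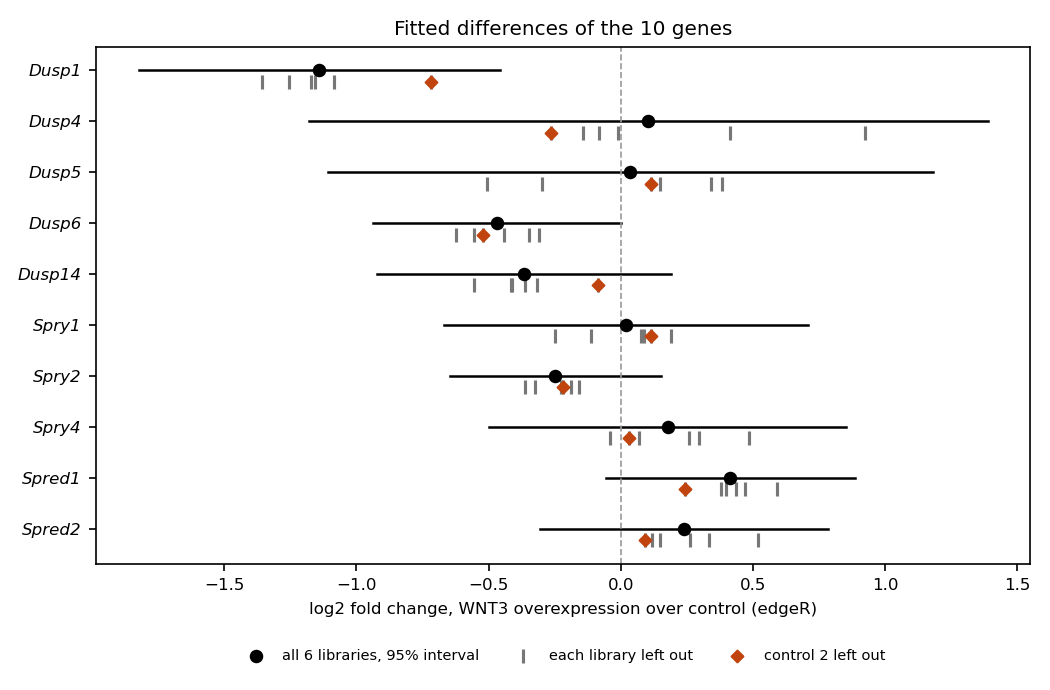
Log2 fold change of WNT3 overexpression over control for each of the 10 genes (horizontal axis), with black points and lines for the edgeR estimate and its 95% interval over all 6 libraries. Grey ticks leave out 1 library each, and the coloured diamond leaves out control 2. The interval of Dusp1, from -1.82 to -0.46, lies below 0, and its estimate without control 2 is -0.72.

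Ratios within a library do not depend on scaling between libraries. The ratio of Spred1 to Dusp1 counts, chosen after their values were seen, was 10.5, 11.5 and 13.3 in overexpression libraries and 6.15, 1.98 and 5.92 in controls. Because Spred1 was higher and Dusp1 lower without overlap, this ratio had to separate the groups and adds no support. Their estimated transcript lengths were 2.17 and 0.672 times that of the median gene. The part of the length trend of control 2 in this ratio was not tested. The ratio of Dusp1 to Dusp6 was 0.559, 0.487 and 0.347 in overexpression libraries and 0.549, 1.17 and 0.493 in controls, and the groups overlapped. Relative to Dusp6, Dusp1 therefore stood out in control 2 and not in the other controls. Dusp6 was itself lower in overexpression without overlap, so this ratio takes out part of the Dusp1 difference. In CPM, Dusp1 was also higher in controls 1 and 3 (33.2 and 41.1) than in any overexpression library (at most 23.6).

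Levels were ordered by mean deposited TPM over the 6 libraries. Spred1 led with 87.2 TPM and was above Dusp6, at 49.0 TPM, in 6 of 6 libraries. Dusp6, Dusp14 (46.9 TPM), Spry2 (42.8 TPM) and Dusp1 (40.3 TPM) formed a group in which each exceeded the next in 4 of 6 libraries, less than a clear order. Dusp1 exceeded Spred2 (17.5 TPM) in 6 of 6 libraries, and Spred2 exceeded Dusp5 (9.16 TPM) in 5 of 6. Dusp5 was above Dusp4 (5.44 TPM) in 6 of 6 libraries. Dusp4 exceeded Spry1 (4.67 TPM) in 3 of 6 libraries and Spry1 exceeded Spry4 (3.82 TPM) in 4 of 6, so the lowest members were not separated. In TPM the groups did not overlap for Dusp1 and Spred1. Dusp1 was at 30.9, 29.97 and 25.6 TPM in overexpression libraries and at 41.1, 63.8 and 50.6 TPM in controls. Spred1 was at 101, 106 and 106 TPM in overexpression libraries and at 78.4, 39.0 and 92.9 TPM in controls.

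**Figure D3:**
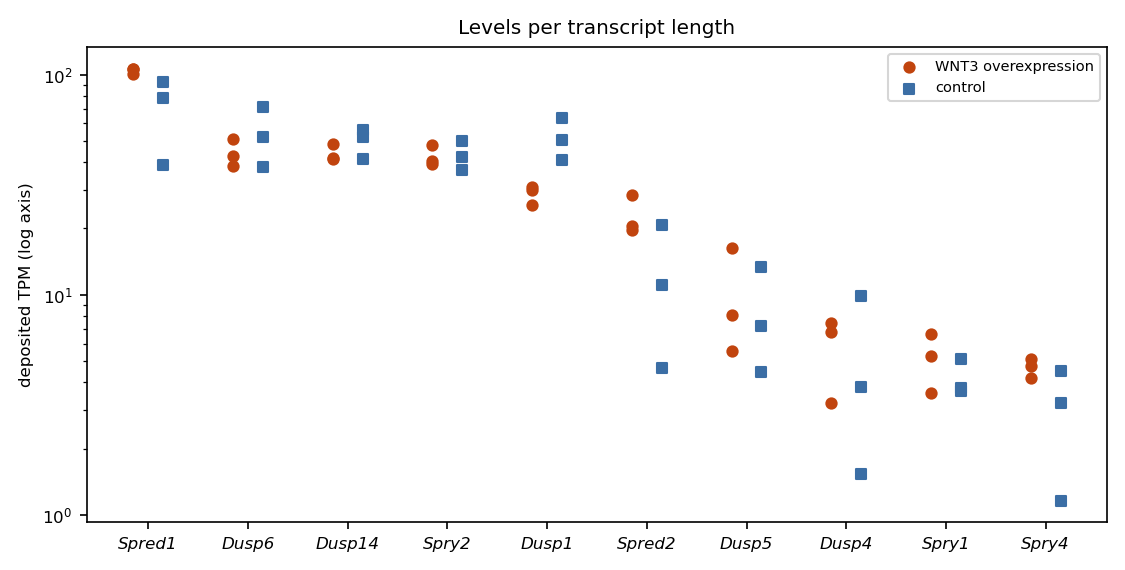
Deposited TPM of the 10 genes (vertical log axis), ordered by their mean over 6 libraries from Spred1 to Spry4. Circles are WNT3 overexpression libraries, at the left of each gene, and squares are controls. Spred1 has a mean of 87.2 TPM and Spry4 one of 3.82 TPM, and the lowest square of Spred1, Spred2 and Spry4 is control 2.

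Several members shared their highest library within a group. In overexpression, library 3 was highest in CPM for 6 members (Dusp4, Dusp6, Spry2, Spry4, Spred1 and Spred2) and library 1 was lowest for 7. In controls, library 3 was highest for the same 6 and for Dusp5. The lowest control differed, and was control 1 for 5 members, control 2 for 4 and control 3 for 1. In TPM, overexpression library 3 was highest for 4 members and lowest for 3, and control 3 was highest for 7. The summed striatal projection neuron markers were also highest in library 3 of each group, at 339 and 459 CPM, and their part in this pattern was not tested. The closest pair of members over the 6 libraries was Spry4 and Spred2, whose centred log2 levels differed by a root mean square of 0.09, followed by Dusp6 and Spry2 with 0.15. Dusp1, Dusp14 and Spry1 did not share these highest libraries and, in CPM, were highest in control 2 among the controls.

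**Figure D4:**
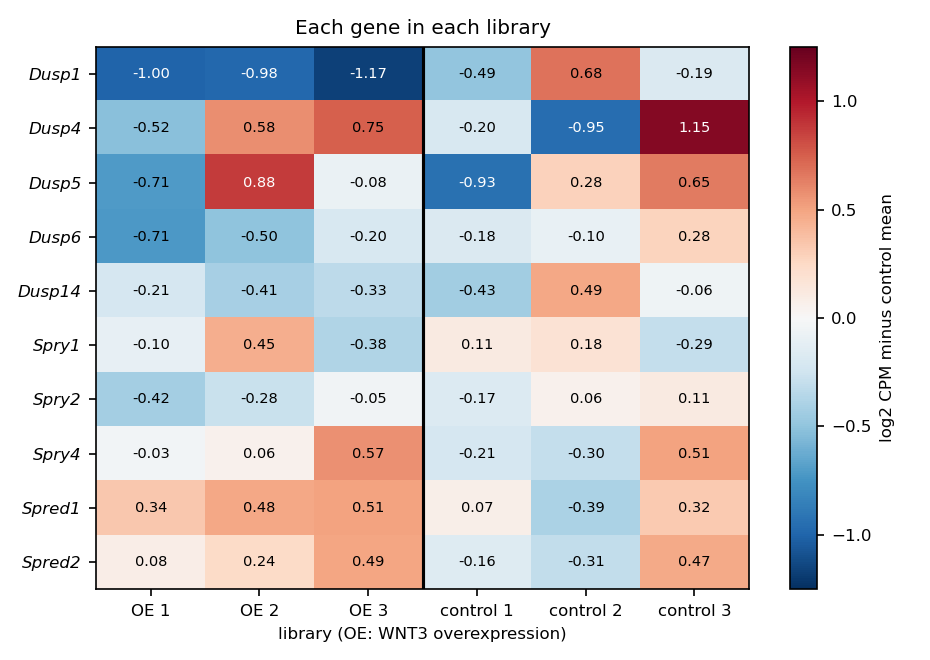
Log2 CPM of each gene minus its mean in the 3 controls, by library (columns, WNT3 overexpression left of the line), with the value in each cell. Dusp1 is at -0.999, -0.98 and -1.17 in the overexpression libraries, and the highest cell is Dusp4 in control 3, at 1.15.

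Of 8 other MAP kinase phosphatases tested, 6 had a negative and 2 a positive fitted fold change (median log2 fold change -0.15), and 0 passed by edgeR. The groups overlapped for all but 2 of the 8. The 2 with an unadjusted p under 0.05 were Dusp7 and Dusp8, both lower without overlap of the groups. Dusp7, which encodes a cytoplasmic ERK phosphatase closely related to Dusp6, was at 38.7, 43.6 and 50.8 CPM in overexpression libraries and at 58.4, 64.4 and 61.7 CPM in controls, a log2 fold change of -0.47 ± 0.17 (SE), or -0.43 without control 2. Dusp8, a phosphatase of JNK and p38 abundant in brain, was at 95.6, 101 and 111 CPM in overexpression libraries and at 127, 132 and 134 CPM in controls, a log2 fold change of -0.35 ± 0.15 (SE). The controls were tighter for these genes than for Dusp1. Their adjusted p was 0.82 by edgeR with Benjamini-Hochberg adjustment. Dusp16, also a JNK and p38 phosphatase, had overlapping groups and a log2 fold change of -0.42 ± 0.25 (SE). Of 12 atypical dual specificity phosphatases, the class of Dusp14, 5 were higher and 7 lower (median log2 fold change -0.15, or 0.08 without control 2), and 0 passed or had an unadjusted p under 0.05.

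Of 20 other inhibitors of receptor to ERK signalling tested, 17 had a positive and 3 a negative fitted fold change. Their median log2 fold change was 0.18, or -0.01 without control 2. By edgeR 0 passed and 0 had an unadjusted p under 0.05. Spry3, the remaining Sprouty gene with enough counts, was at 9.26, 8.35 and 10.3 CPM in overexpression libraries and at 5.75, 5.10 and 9.91 CPM in controls. The cascade between receptor and nucleus showed small medians. Of 24 tested genes of the Ras-ERK core 17 were higher (median log2 fold change 0.09, or 0.02 without control 2), and of 19 JNK and p38 kinases and their partners 13 were higher, with a median of 0.04 (0.02 without control 2). By edgeR 0 passed and 0 had an unadjusted p under 0.05 in either list. Hras, which had the smallest p of the core genes, was at 40.9, 33.4 and 48.4 CPM in overexpression libraries and at 42.5, 139 and 51.2 CPM in controls, and its log2 fold change of -0.92 was -0.19 without control 2.

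At the receptor level, values lay in both directions. Of 16 tested receptor tyrosine kinases, 10 were higher (median log2 fold change 0.11, or -0.06 without control 2), and the 2 with an unadjusted p under 0.05 were Flt1, the endothelial receptor of vascular growth factor, and Igf1r, the receptor of insulin-like growth factor. Igf1r was at 123, 112 and 112 CPM in overexpression libraries and at 91.1, 43.5 and 89.2 CPM in controls, a log2 fold change of 0.63 ± 0.28 (SE), or 0.36 without control 2. Of 22 tested ligands, 13 were higher (median log2 fold change 0.06, or -0.02 without control 2), and the 2 with an unadjusted p under 0.05 were lower. These were Fgf9, a fibroblast growth factor, at 14.7, 16.7 and 18.0 CPM in overexpression libraries and 21.1, 30.7 and 20.7 CPM in controls, and Pdgfa, whose groups overlapped. The log2 fold change was -0.55 ± 0.21 (SE) for Fgf9, or -0.34 without control 2, and -0.61 ± 0.26 (SE) for Pdgfa, or -0.29 without control 2. By edgeR 0 genes of either list passed.

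Transcripts used as readouts of ERK output did not share a direction. Of 11 tested genes 6 were higher and 5 were lower (median log2 fold change 0.07, or 0.03 without control 2), and 0 passed by edgeR. Ier3, a stress-induced gene, was at 8.58, 18.0 and 9.76 CPM in overexpression libraries and at 5.21, 7.90 and 4.67 CPM in controls, a log2 fold change of 1.03 ± 0.35 (SE). Phlda1, another gene of this list, had one of -0.68 ± 0.32 (SE), or -0.22 without control 2. Of 8 tested feedback genes of canonical Wnt signalling 6 were higher, with a median of 0.11 (0.07 without control 2) and 0 passing by edgeR. The 1 with an unadjusted p under 0.05 was Rnf43, which encodes a ligase that removes Wnt receptors, at 1.44, 1.80 and 1.57 CPM in overexpression libraries and 2.82, 3.25 and 1.998 CPM in controls.

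**Figure D5:**
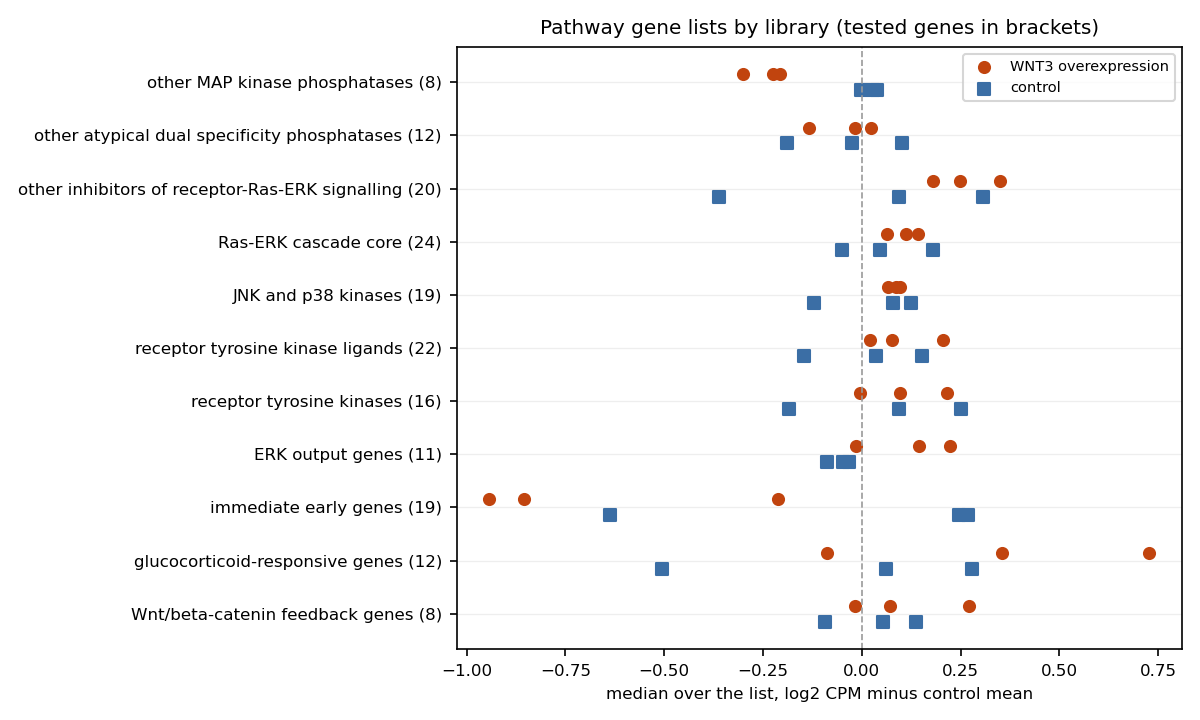
Median log2 CPM minus control mean over the tested genes of each pathway list (horizontal axis), with 1 point for each library and circles for WNT3 overexpression above squares for control. The immediate early list lies at -0.94, -0.85 and -0.21 in overexpression libraries and at -0.64, 0.27 and 0.25 in controls.

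The genes whose pattern over the 6 libraries was most like that of Dusp1, among 11517 compared, were Sdhaf1, Dbp, Barx2, Pantr1 and Mdk, with root mean square differences in centred log2 CPM between 0.10 and 0.20. Dbp, a transcription factor of the clock output, was at 28.7, 22.5 and 23.4 CPM in overexpression libraries and at 38.2, 80.1 and 39.3 CPM in controls. All 5 were highest in control 2. Those most like Dusp6 were Phf21b, Alk, Mn1, Pex11a and Gdf11, with differences between 0.08 and 0.13, and all 5 were highest in control 3.

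Markers of other cell types lay in both directions, and in bulk tissue fewer cells of a type and less RNA per cell cannot be told apart. All 9 endothelial markers were tested and 8 were higher, and their sum lay between 295 and 487 CPM in overexpression libraries and between 228 and 250 CPM in controls. Of 10 leukocyte markers 5 were tested and all 5 were higher, with sums over the 10 between 13.9 and 44.4 CPM in overexpression libraries and between 6.02 and 8.64 CPM in controls. In the other direction, 8 of 8 mature oligodendrocyte markers had a negative fitted fold change (median log2 -0.36, or -0.13 without control 2), with sums between 3143 and 6433 CPM in overexpression libraries and between 4620 and 6930 CPM in controls. So did 8 of 8 microglial markers (median log2 -0.25, or 0.01 without control 2), with sums between 256 and 418 CPM in overexpression libraries and between 309 and 476 CPM in controls. All 6 tested hippocampal neuron markers were also negative (median log2 -0.84, or -0.46 without control 2), with sums between 169 and 195 CPM in overexpression libraries and between 186 and 297 CPM in controls. The summed levels of these 3 lists overlapped between the groups, and those of the endothelial and leukocyte lists did not. The sums of pericyte and smooth muscle markers (5 higher, 3 lower) also did not overlap. They were 224, 265 and 232 CPM in overexpression libraries and 216, 195 and 206 CPM in controls. Also higher were 7 of 8 astrocyte, 7 of 8 meningeal fibroblast and 5 of 5 tested choroid plexus markers, all with overlapping sums. Of 8 oligodendrocyte precursor markers, 5 were lower. No marker of these lists was at 0 in all libraries. The part of these cells in the values of Dusp1, Dusp6 and Spred1 was not tested. Counting by strand is not stated, so reads of overlapping genes may not be separable. In the RefSeq annotation 1 gene overlapped a member, Gm34921 on Dusp6, with at most 9 counts in a library. The GENCODE span of Dusp1 is longer, from 26505590 to 26562128, and is overlapped on the opposite strand by Ergic1 (640 bases) and by the pseudogene Gm8225 (956 bases). Ergic1 had 4223, 4815 and 6166 counts in overexpression libraries and 3390, 4093 and 4113 counts in controls. Gm8225 had 34, 40 and 69 counts in overexpression libraries and 32, 110 and 36 counts in controls, so control 2 was highest for it as for Dusp1, which had 1308 to 1482 counts in overexpression libraries and 1413 to 4080 in controls. The part of these genes in the Dusp1 counts was not tested.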

How the data were processed

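RNA was extracted with Trizol and made into strand-specific TruSeq libraries, per the labels' protocols. Named in the submitters' processing notes, with no role or order, are the tools STAR 2.5.3a, FastQC 0.11.5, DESeq 1.16.1 and Cuffnorm and the build mm10. Which program counted reads, and whether by strand, is not stated there. The authors deposited whole-number counts per gene and, for the same genes, TPM values. Columns were matched to samples through the library names in the labels.

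From the deposited counts, genes were kept by filterByExpr (minimum count 10) and tested with the edgeR 4.0.16 quasi-likelihood test in R 4.3.3, with TMM factors and group as the only term, and Benjamini-Hochberg adjustment over 22360 genes. CPM are over TMM-scaled library sizes. SE is the size of the log2 fold change over the square root of F, and 95% intervals use the moderated degrees of freedom. Per-library log2 differences used a pseudocount of 0.1 CPM. Transcript length was the ratio of deposited counts to TPM. With 3 libraries a group, the smallest p of the two-sided exact permutation test is 0.1, the value of Dusp1, Dusp6 and Spred1.

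Alternatives were other scalings and filters, DESeq2 1.42.0, limma 3.58.1 (voom, and limma-trend on TPM with a pseudocount of 1 or 0.1 before log2), a replicate block and the omission of each library. DESeq2 without each library and the removal of a length trend (lowess, span 0.3) were chosen after seeing the data. The functions were tested on simulated data. The members and all gene lists were chosen with earlier results of these data known. All members were named, with up to 3 genes of smallest p per pathway list and the 5 genes most alike in pattern for the 2 members of smallest p (mean CPM of 5 or more, unnamed gene models left out). Counting error is small at these depths, where members had between 123 and 19700 counts per library, and intervals cover the spread of libraries. Promoters are from RefSeq (GRCm38.p6).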

Additional observations from a re-analysis of the deposited data

How the results depend on the processing

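The count of members called was 0 under every edgeR and limma alternative run and under DESeq2 with all libraries. DESeq2 called 1 (Dusp1) without control 1 and without control 2, a range of 0 to 1 over single omissions. Over all tested genes edgeR called 0 (1040 at an unadjusted p under 0.05) and limma voom 0 (1032), whereas DESeq2 called 64. Without controls 1, 2 and 3 in turn DESeq2 called 102, 147 and 114, and without overexpression libraries 1, 2 and 3 it called 32, 11 and 66. The members' median log2 fold change ranged from -0.24 to 0.19 with single libraries left out, and was lowest without overexpression library 2, where 7 members were lower (4 to 7 over the omissions). Dusp1, Dusp6, Dusp14 and Spry2 kept a negative and Spred1 and Spred2 a positive log2 fold change under all 25 alternatives run. Some of these values were near 0. Spry2 was at -0.0092 on log2(TPM + 1), Spred2 at 0.041 with the length trend removed and Dusp14 at -0.084 without control 2. All alternatives reuse the same 6 libraries, so a kept sign is no independent support. Single omissions moved Dusp4 between -0.26 and 0.93, Dusp5 between -0.51 and 0.38, Spry1 between -0.25 and 0.19 and Spry4 between -0.040 and 0.49 in edgeR. In DESeq2 Dusp4 was at -0.089 without control 1, -0.27 without control 2, -0.018 without overexpression library 2 and -0.14 without overexpression library 3. Dusp5 was at -0.30 and -0.51, Spry1 at -0.11 and -0.25 and Spry4 at -0.037 in the omissions that turned their sign there; the cause was not tested. Spry1 was also at -0.016 with voom. With the replicate block edgeR called 0 genes, Dusp1 was at -1.05 and Spry1 at -0.0081. The labels do not say whether same-numbered libraries are paired. The correlations of their deviations from the group means were 0.059, -0.020 and -0.010. With 3 libraries a group these deviations depend on each other, so the correlations cannot decide whether libraries were paired.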

Other observations

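Summed over the 10 members, deposited TPM came to 297, 324 and 316 in overexpression libraries and 283, 252 and 369 in controls, and the groups overlapped. Dusp1 took between 8.10% and 10.4% of this sum in overexpression libraries and between 13.7% and 25.3% in controls. Spred1 took between 32.9% and 33.9% in overexpression libraries and between 15.5% and 27.7% in controls. The ratio of Dusp1 to Fos counts, which both belong to the immediate early response, was 1.07, 1.497 and 0.883 in overexpression libraries and 1.03, 1.02 and 0.655 in controls. These quantities were picked with their values in view and carry no test.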
